A study of Rattus norvegicus with 7 samples.

Results

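A microRNA (miRNA) is cut from a hairpin precursor as a duplex of 2 short strands. The guide strand is usually kept in the silencing complex and pairs with target mRNAs through its seed, bases 2 to 8, while the passenger or star strand (written with an asterisk) is usually degraded. Some star strands are nevertheless loaded and can act on their own targets, because their seed differs from that of the guide. Star miRNAs are read by probes of their own on the arrays, so both strands of a hairpin could be followed in the pancreatic islets, the clusters of endocrine cells in which guide miRNAs such as miR-375 and miR-7a are abundant.

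The islets were isolated from male Wistar rats, 4 of them 12 months old (replicates 2, 4, 10 and 16) and 3 of them 3 months old (replicates 9, 11 and 13). The labels name no genotype or treatment, and the study compared the ages. RNA of each rat was hybridised to 1 single-colour array, and all 7 arrays lay on 1 slide. Of the 677 rat miRNAs on the array, 240 carried a star. The star miRNAs described here are 198 of them, chosen by name and not by signal. The other 42, which belong to the Dlk1-Dio3 cluster or share the stem of miR-9, miR-34, miR-124, miR-126, miR-129, miR-338 or miR-425, were left out by the rule. Each star miRNA was set against its guide, the miRNA of the same name without the asterisk, which the array held for 197 of the 198.

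The sequences below are those on which the results turn, as RefSeq (build GRCr8) gives the mature strands, 5′ to 3′, with the seed in capitals. RefSeq names the arms 5p and 3p and the array does not, so the arm was assigned from the hairpin copy number in the RefSeq name for 7 of the 26 detected star miRNAs with a sequence, and from common usage for 19. The first set holds the let-7 strands, of which the stars had lower mean signals relative to their guides at 12 months. No pair passed adjustment (limma, lowest adjusted p = 0.0915). let-7a-1* and let-7b* share a seed.
let-7a-1*: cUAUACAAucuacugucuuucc
let-7b*: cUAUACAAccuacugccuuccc
let-7d*: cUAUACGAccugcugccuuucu
let-7a: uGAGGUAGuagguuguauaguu
The second set holds star strands whose mean signal relative to their guide was higher at 12 months after quantile normalisation. Again no pair passed adjustment (limma, lowest adjusted p = 0.0915). Without normalisation the difference was only 0.021 for miR-99a*. miR-30c-1* and miR-24-2* were detected in no younger rat, so no difference is claimed for them. miR-30c-1* and miR-30c-2* share a seed and a guide, and miR-99a* is shown beside miR-99b*, which has the same seed.
miR-30c-1*: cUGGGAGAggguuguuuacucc
miR-30c-2*: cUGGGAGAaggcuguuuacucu
miR-30c: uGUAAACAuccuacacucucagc
miR-24-2*: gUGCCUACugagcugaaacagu
miR-24: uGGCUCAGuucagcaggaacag
miR-22*: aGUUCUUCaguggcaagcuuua
miR-22: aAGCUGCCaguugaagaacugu
miR-183*: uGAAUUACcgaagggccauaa
miR-183: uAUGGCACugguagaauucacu
miR-200b*: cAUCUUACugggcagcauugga
miR-99a*: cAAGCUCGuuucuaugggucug
miR-99b*: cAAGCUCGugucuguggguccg
The third set holds miR-211*, miR-483* and miR-652*, bright star strands whose level varied between the older rats, and the strands of miR-7a, an abundant guide of islet endocrine cells.
miR-211*: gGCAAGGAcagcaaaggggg
miR-483*: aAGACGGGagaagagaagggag
miR-652*: aCAACCCUaggagggggugccau
miR-7a-2*: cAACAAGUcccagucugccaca
miR-7a-1*: aCAACAAAucacagucugccau
miR-7a: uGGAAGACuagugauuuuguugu
The 26 star sequences held 23 different seeds. The 24 detected star miRNAs with both strands in RefSeq began with U in 4 cases and with C in 11. Their 22 distinct guides began with U in 12 cases and with C in 4.

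Few star miRNAs were detected. The scanner software called 43 of the 198 (21.7%) detected on at least 1 array, against 244 of the 437 miRNAs without a star (55.8%). The number detected per array was 39, 39, 35 and 42 at 12 months (replicates 2, 4, 10 and 16, the order used throughout) and 32, 36 and 30 at 3 months (replicates 9, 11 and 13), which gave 38.8 ± 2.87 (SD, n = 4) and 32.7 ± 3.06 (SD, n = 3). The ages overlapped, since 3-month-old replicate 11 lay above 12-month-old replicate 10. Without a star, 224, 233, 227 and 234 miRNAs were detected at 12 months and 213, 218 and 204 at 3 months. There, too, more were detected in the older rats. The arrays also differed in brightness, and the median log2 difference between ages of the 272 miRNAs tested below was 0.79 before normalisation and 0.06 after it.

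The 30 star miRNAs detected on all 7 arrays were let-7b*, let-7d*, miR-1*, miR-140*, miR-150*, miR-183*, miR-191*, miR-200b*, miR-202*, miR-211*, miR-22*, miR-296*, miR-29c*, miR-30a*, miR-30c-2*, miR-30d*, miR-30e*, miR-31*, miR-328a*, miR-362*, miR-421*, miR-423*, miR-455*, miR-466b-1*, miR-483*, miR-582*, miR-652*, miR-7a-1*, miR-7a-2* and miR-99a*. The 13 others were miR-330* and miR-99b* on 6 arrays, let-7a-1* on 5, miR-208*, miR-24-2*, miR-29a* and miR-30c-1* on 4, miR-505* on 3, miR-33* and miR-378* on 2, and miR-29b-2*, miR-466b-2* and miR-664-2* on 1. The remaining 155 were detected on no array, although 94 of them have a guide that was detected on all 7. By family, all 5 star miRNAs of miR-30 were detected, both of miR-7a and 3 of the 4 of miR-29. Of the 9 of the let-7 family 3 were, and none of the 11 of the miR-17/92 clusters and their paralogs or of the 6 of miR-181. None of the undetected star miRNAs could be given a level.

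A bright guide did not always come with a detected star. Among the star miRNAs detected on no array, those with the brightest guides were miR-29b-1*, let-7c-1*, let-7f-1*, let-7f-2* and miR-375*, the partner of the miRNA that marks islet endocrine cells (named after their values were seen). miR-29b has a median signal of 26070.0 units over the 7 arrays and is the guide of 2 star miRNAs, of which miR-29b-2* was detected on 1 array and miR-29b-1* on none. Over hairpins with a guide detected on all arrays, the median guide signal was 823 units where the star was detected (n = 30) and 236 units where it was not (n = 94). Different probes differ in affinity, so these signals do not give numbers of molecules.

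The 10 star miRNAs with the highest mean normalised signal were miR-652*, miR-29c*, miR-140*, miR-455*, miR-7a-2*, miR-211*, miR-296*, miR-483*, miR-30a* and miR-362*. The signal of miR-29c*, from a hairpin whose guide represses extracellular matrix genes, was 397, 313, 244 and 362 units at 12 months and 190.0, 209 and 131 units at 3 months, and its guide gave 15669, 12517, 10517 and 14411 units and 6573, 7834 and 4989 units. miR-140*, from a hairpin best known in cartilage, gave 271, 254, 217 and 268 units and 152, 155 and 81.4 units, beside 341.2, 328.8, 322 and 369.5 units and 159, 218 and 136.2 units for miR-140. All 4 signals of the older rats were above all 3 of the younger for both strands of these 2 hairpins. After quantile normalisation miR-140* lay at 7.68 ± 0.10 (SD, n = 4) and 7.40 ± 0.28 (SD, n = 3) on the log2 scale, and miR-29c* at 8.01 ± 0.14 and 7.84 ± 0.17, and the ages overlapped for both. miR-7a-2*, from 1 of the hairpins that give miR-7a, had signals of 225, 161, 85.9 and 199.6 units and 82, 102 and 70.9 units. Its guide, an abundant miRNA of islet endocrine cells, gave 46071, 38605, 22838 and 43195 units and 18669.8, 24524 and 17281 units.

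For 9 detected star miRNAs the guide was detected on no array. They were miR-1*, miR-191*, miR-202*, miR-208*, miR-211*, miR-296*, miR-330*, miR-421* and miR-423*. miR-296* gave 132.6, 119, 169.7 and 99.2 units at 12 months and 60.3, 82.3 and 70 units at 3 months, while every signal of miR-296 was below 0. miR-1*, the partner of the muscle miRNA miR-1, gave 28, 28.5, 20.9 and 27.1 units and 24.2, 26.7 and 27.8 units, while miR-1 gave at most 3.67 units on any array and was not called detected. miR-191* gave 27.3, 28.3, 19.2 and 27.1 units and 23.7, 26.3 and 25.3 units, while miR-191 gave at most 2.07 units. miR-362* was close to these, with 102, 92.6, 71.2 and 101 units and 53.4, 65 and 54.3 units beside a guide detected on 1 array only. None of these stars could enter a comparison with its guide.

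To enter the age comparison a miRNA had to be detected in all rats of 1 age or of both, which held for 35 star miRNAs and for 272 miRNAs in all. None of the 35 passed an adjusted p of 0.05 (limma, Benjamini-Hochberg over the 272, lowest adjusted p = 0.0608), and 0 did with the methods' t-test. At an unadjusted limma p below 0.05 there were 10, or 28.6%, beside 21.7% of all miRNAs tested. Of the 10, 4 were higher at 12 months (miR-330*, miR-24-2*, miR-30c-1* and miR-22*), beside 9.19% of all miRNAs, and 6 were lower (let-7b*, miR-582*, miR-1*, miR-191*, let-7a-1* and miR-202*), beside 12.5%. Of the 4 that were higher, miR-330*, miR-24-2* and miR-30c-1* passed the filter only through the older rats, in which they were brighter, so their count and p values support nothing. Of the 30 star miRNAs detected on all 7 arrays, 6 had a p below 0.05, beside 18.5% of all miRNAs detected on all 7, with 1 higher (miR-22*), beside 6.3%, and 5 lower, beside 12.2%. Older and younger rats were fully separated at 7 of the 35, beside 17.3% of all miRNAs tested, and 3 of the 7 were those that passed through the older rats. RNA was taken from whole islets, so fewer cells of a type and less RNA per cell cannot be told apart.

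**Figure D1:**
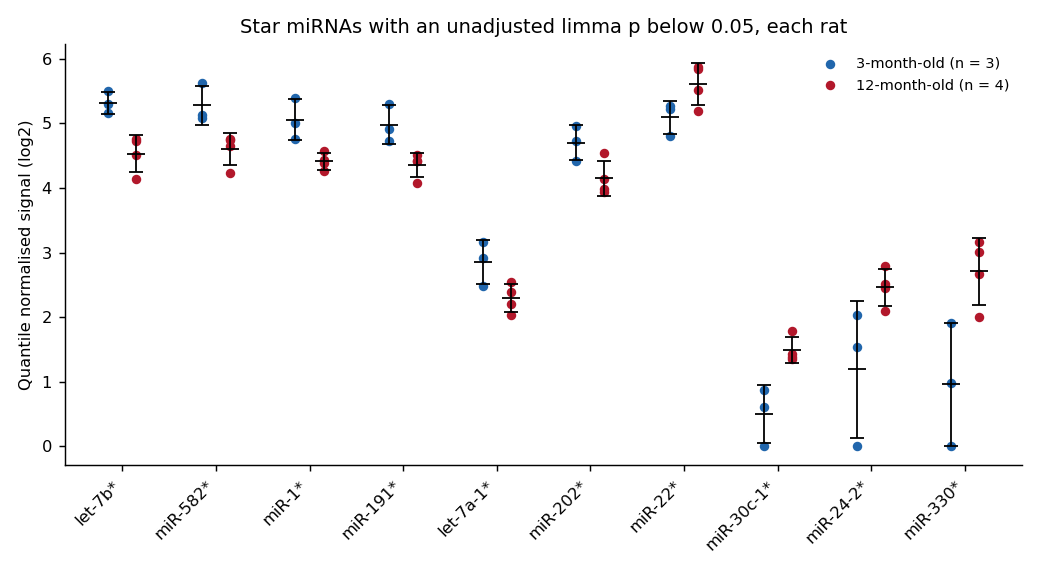
Quantile normalised log2 signal (vertical axis) of the 10 star miRNAs with an unadjusted limma p below 0.05, with 1 point per rat (blue, 3 months, n = 3; red, 12 months, n = 4) and the mean ± SD in black. Older and younger rats are fully separated at 7 of the 10, and overlap at let-7a-1*, miR-202* and miR-22*. miR-24-2* and miR-30c-1* were detected in no younger rat, so their blue points are not above background.

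miR-330* had signals of 10.5, 8.97, 4.14 and 10.4 units at 12 months and 2.7, 2.1 and -0.394 units at 3 months. Its normalised log2 values were 3.16, 2.67, 2.0 and 3.00 and 1.91, 0.98 and 0.00, where values at 0.00 stand for a signal set to 1. It was detected on 4 of 4 older and 2 of 3 younger arrays, and all 4 older rats lay above all 3 younger rats. The log2 difference of 1.75 (standard error 0.45, limma adjusted p = 0.0646) depends on the value of 1 to which the signal of 3-month-old replicate 13 was set.

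miR-24-2* comes from 1 of 2 hairpins that give miR-24, a broadly expressed miRNA of the miR-23/24/27 clusters. All 4 older rats had it detected, with 5.83, 5.83, 6.19 and 9.15 units, and none of the younger, where it gave 2.81, 2.59 and -0.957 units. Set against the lowest detected signal of each younger array, or its own signal if higher, it was 1.85-fold higher in the older rats. With the floor raised to the lowest detected signal of each array it was 1.81-fold higher. Neither value is a lower limit, and neither was tested. In 3-month-old replicate 9 the 2.81 units were not called detected, although the lowest detected signal there was 1.58 units, and another background correction gave a smaller difference (below). Its measured means were 2.46 and 1.19 on the log2 scale. The star of the other hairpin, miR-24-1*, was detected on no array. miR-30c-1* followed the same pattern at a lower level, with 2.69, 4.92, 3.14 and 3.96 units against 0.906, 1.47 and 1.16 units and detection on 4 and 0 arrays. Computed in the same way, and again neither tested nor a lower limit, it was 1.30-fold higher, or 1.04-fold with the raised floor. The limma adjusted p of 0.0608 for miR-30c-1* belongs to the difference of its measured means. Both were tested only because every older rat had them detected, so neither p is support for a difference, and both lay close to the detection limit, since the lowest detected signal on the arrays was between 1.42 and 4.92 units. Starting from the median spot signal with a normexp background correction, the log2 difference was 0.0089 for miR-30c-1*, 0.070 for miR-24-2* and 0.093 for miR-330*.

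miR-22*, whose guide is among the bright islet miRNAs, gave 70.8, 62.4, 40.4 and 66.2 units at 12 months and 32, 35.5 and 19.3 units at 3 months. Its normalised values of 5.88, 5.52, 5.20 and 5.85 against 5.26, 5.22 and 4.80 overlapped at replicate 10 of the older rats. The log2 difference was 0.52 (standard error 0.22, limma adjusted p = 0.206, exact permutation p = 0.114). The guide miR-22 had a difference of -0.043.

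The 6 star miRNAs that were lower at 12 months had nearly level signals before normalisation, while most other miRNAs were brighter in the older rats. Whether the probes of these 6 (miR-1*, miR-191*, miR-582*, let-7b*, miR-202* and let-7a-1*) read the named strand was not tested. Their normalised and star-minus-guide values hold only as far as the probes do. let-7b*, the partner of a member of the growth-restraining let-7 family, gave 30.8, 33.4, 19.6 and 28.4 units at 12 months and 32.1, 33.6 and 30.4 units at 3 months. Without 12-month-old replicate 10, the low value, both ages lay between 28.4 and 33.6 units. After normalisation the values were 4.72, 4.76, 4.14 and 4.51 against 5.29, 5.16 and 5.50, with no overlap, and the log2 difference was -0.79 (standard error 0.19, limma adjusted p = 0.0608, exact permutation p = 0.0286). miR-582* gave 30.1, 33.3, 20.8 and 30.4 units and 28.5, 31.6 and 32.3 units, and after normalisation 4.66, 4.75, 4.23 and 4.76 against 5.12, 5.08 and 5.63, a difference of -0.68 (standard error 0.20, adjusted p = 0.0817). For miR-1* the log2 difference was -0.64, for miR-191* -0.63, for let-7a-1* -0.55 and for miR-202* -0.55, and the last 2 overlapped between ages. let-7a-1* was detected on all 4 older arrays and on 1 younger array. Across the 6, the un-normalised log2 difference lay between -0.22 and 0.11, where the median of all miRNAs tested was 0.79, and the highest signal was 1.19 to 1.71 times the lowest over the 7 arrays. The same ratio was 1.91 to 13.4, with a median of 3.01, over the 25 star miRNAs with a larger p. Since the 6 were chosen for being lower after normalisation, this contrast is no support. Of all 272 miRNAs tested, 31 had an un-normalised log2 difference at or below 0.1, beside 5 of the 35 star miRNAs. With no normalisation 22 of the 35 star miRNAs were higher at 12 months and 0 were lower at an unadjusted limma p below 0.05, beside 71% of all miRNAs tested.

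**Figure D2:**
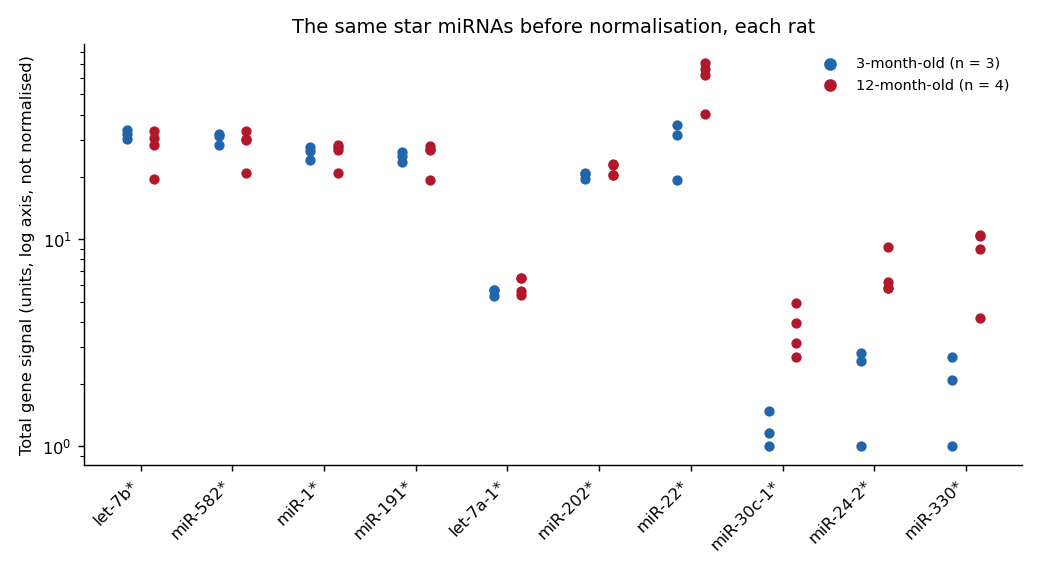
Total gene signal in scanner units on a log axis, before normalisation, of the same 10 star miRNAs, with 1 point per rat (blue, 3 months; red, 12 months) and signals under 1 drawn at 1. The 6 miRNAs on the left lie at nearly the same signal at both ages, and the 4 on the right are brighter in the older rats.

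The signal of miR-22* comes from 1 probe and that of each other tested star miRNA is the sum over 2 to 4 probes. Before normalisation single probes moved in opposite directions for 4 of the 35. The log2 differences of single probes ran from -0.26 to 0.42 for let-7a-1*, from -0.40 to 0.45 for let-7d*, from -0.038 to 0.0069 for miR-1* and from -0.20 to 0.24 for miR-191*.

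Markers of other cell types moved between ages as well, and their part in the differences of star miRNAs was not tested. All 3 acinar miRNAs on the array (miR-217, miR-216b-5p and miR-216a) were lower at 12 months at an unadjusted limma p below 0.05, with summed signals of 149 to 1451 units at 12 months and 887 to 1722 units at 3 months. All 5 mesenchymal miRNAs were higher, 4 of them with a p below 0.05, with sums of 2629 to 3645 units and 736 to 1711 units. Of the 4 leukocyte miRNAs, 3 were higher, 2 of them with a p below 0.05, and 1 was lower. The sums were 310.2 to 663 units and 142 to 222 units. Of the 2 endothelial ones, 1 was higher with a p below 0.05, and the sums were 2173 to 2794 units and 1017 to 1754 units. Neither of the 2 erythroid ones had a p below 0.05, and their sums were 144 to 289 units and 86.7 to 224 units, while their median log2 difference after normalisation was -0.52. All 3 endocrine miRNAs tested were lower at 12 months after normalisation (median log2 difference -0.20), and 0 had a p below 0.05. Their list was bright at both ages (33980.0 to 64625 and 26733 to 35493 units), although miR-184, a member of it, was detected on no array. All these sums are of signals before normalisation, when most miRNAs were brighter in the older rats.

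Whether the star moved apart from its guide was asked with the difference of the 2 log2 signals within each array, in which the affinity of the probes cancels between ages. Both strands could be tested for 26 star miRNAs with 24 different guides, among 54 hairpins on the array. None of the 26 passed an adjusted p of 0.05 in this measure (limma, adjusted over the 54, lowest adjusted p = 0.0915; 0 also with the methods' t-test). At an unadjusted limma p below 0.05 there were 10 of 26, or 38.5%, beside 42.6% of all hairpins tested. Of these, 6 were higher at 12 months (miR-30c-1*, miR-22*, miR-200b*, miR-99a*, miR-24-2* and miR-183*), beside 31.5% of all hairpins, and 4 were lower (miR-582*, let-7d*, let-7b* and let-7a-1*), beside 11.1%. The stars miR-30c-1* and miR-24-2* were not detected in the younger rats and passed the filter only through the older, so their counts and p values support nothing. Where both strands were detected on all 7 arrays, 7 of 20 pairs had a p below 0.05, beside 35% of such hairpins, with 4 higher (miR-22*, miR-200b*, miR-99a* and miR-183*), beside 27.5%, and 3 lower, beside 7.5%. Older and younger rats were fully separated at 6 of the 26, miR-30c-1* among them, beside 29.6% of all hairpins. The count rests on single rats, as it was 2 without 12-month-old replicate 16 (8 of all 54 hairpins) and 4 without 3-month-old replicate 9 (11 of 54). It was 6 without 3-month-old replicate 13. It was 0 with the normexp background correction (4 of all 54 hairpins).

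The guides themselves hardly differed between ages after normalisation. Over the 26 pairs the log2 difference of the guide ran from -0.32 to 0.33, and 0 of the 24 guides had an unadjusted limma p below 0.05. That of the stars detected on all 7 arrays ran from -0.79 (let-7b*) to 0.90 (miR-183*). The stars miR-24-2*, miR-30c-1*, miR-99b* and let-7a-1* passed the filter only through the older rats, so their sizes are left out of this range. The median absolute difference over all 26 pairs, those stars included, was 0.10 for the guides and 0.27 for the stars. Star and guide had differences of the same sign in 11 pairs and of opposite sign in 15. Quantile normalisation gives the brightest miRNAs nearly fixed values, and the guides of the 10 pairs named above had median ranks from 7 to 119 among the 677 miRNAs.

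**Figure D3:**
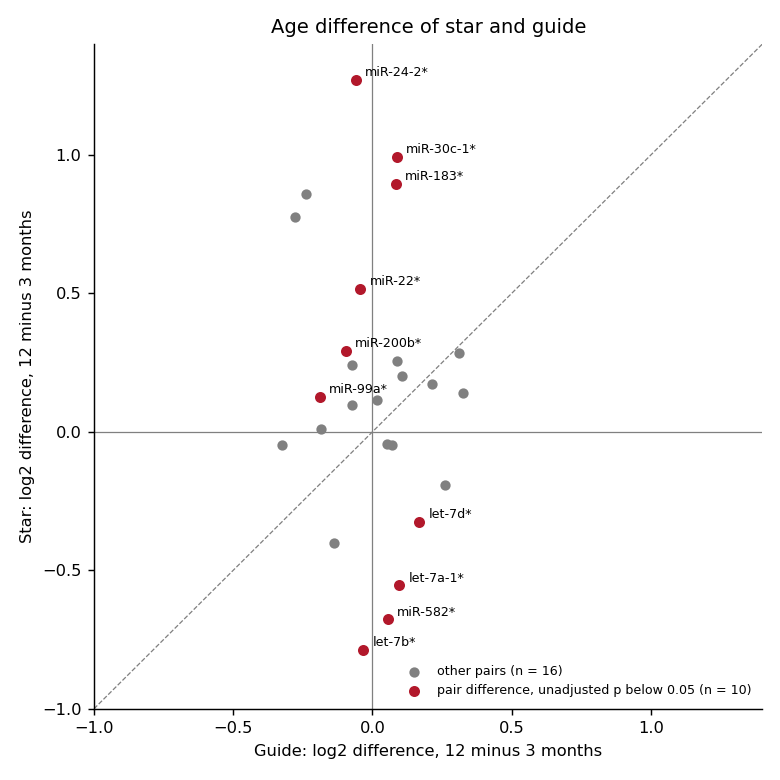
Log2 difference between ages (12 minus 3 months, quantile normalised) of the star (vertical axis) against that of its guide (horizontal axis) for 26 hairpins, with the 10 pairs of an unadjusted limma p below 0.05 in red and equal differences on the dashed line. The guides lie between -0.32 and 0.33, and the stars detected on all 7 arrays between -0.79 and 0.90. The highest points, miR-24-2* and miR-30c-1*, were detected in no younger rat, so their height rests on undetected signals.

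The pair of let-7b* showed the largest shift of the let-7 hairpins. Star minus guide was -8.33, -8.29, -9.25 and -8.54 at 12 months and -7.50, -8.15 and -7.88 at 3 months on the log2 scale, so the ages did not overlap. The difference was -0.76 (standard error 0.27, limma adjusted p = 0.0915, exact permutation p = 0.0286). The signals behind it were level for the star, as given above, while let-7b gave 11529, 10918, 10057 and 12411 units and 5396, 8442 and 7499 units and was brighter in the older rats. let-7a-1* minus let-7a was -10.99, -11.42, -10.95 and -11.17 and -10.13, -11.02 and -10.30, a difference of -0.65 (standard error 0.23), and let-7d* minus let-7d was -7.92, -8.07, -8.17 and -8.23 and -7.37, -7.46 and -7.98, a difference of -0.49 (standard error 0.18). The ages overlapped for both. All 3 let-7 stars that could be compared were thus lower against their guide, none at a limma adjusted p below 0.05. Of the 3, let-7a-1* was detected in only 1 younger rat and gave 5.31 to 6.49 units. Single probes of let-7a-1* and let-7d* moved in opposite directions before normalisation. The same 3 differences without normalisation were -0.90, -0.69 and -0.53.

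miR-582* was compared with miR-582, a guide of moderate signal that gave 218, 201, 140.9 and 304 units and 86.1, 119 and 148 units. Star minus guide was -2.76, -2.42, -2.63 and -3.12 at 12 months and -1.67, -2.03 and -2.31 at 3 months, with every older rat below every younger rat. The difference was -0.73 (standard error 0.21, adjusted p = 0.0915, exact permutation p = 0.0286), and -0.98 without normalisation.

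Among the pairs that were higher at 12 months, miR-30c-1* minus miR-30c was -7.69, -6.96, -7.32 and -7.62 in the older rats. In the younger rats the star was not above background, so no size is given for the difference. miR-30c-2*, which shares seed and guide with it, gave -4.04, -3.92, -3.99 and -3.89 against -4.09, -4.13 and -4.18, a difference of 0.17 (standard error 0.10, adjusted p = 0.247). The 2 stars also differed in level, with 38.7, 35.6, 31 and 39.8 units and 17.1, 29 and 18.4 units for miR-30c-2*, where miR-30c-1* stayed under 5 units. With the floor raised to the lowest detected signal of each array, the pair difference of miR-30c-1* was -0.036. miR-24-2* minus miR-24 was -10.00, -10.12, -9.40 and -9.60 in the older rats, and no size is given for its difference either, since the star was not above background in the younger rats.

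miR-22* minus miR-22 was -6.33, -6.61, -6.94 and -6.36 against -7.12, -6.91 and -7.33, a difference of 0.56 (standard error 0.19, adjusted p = 0.0915), with replicate 10 of the older rats overlapping the younger. Without normalisation the difference was 0.33 and the ages did not overlap. miR-183* minus miR-183, from the cluster with miR-96 and miR-182 that is best known in sensory cells, was -6.68, -6.92, -7.34 and -6.87 against -7.59, -7.21 and -8.50, a difference of 0.81 (standard error 0.31). miR-200b* minus miR-200b, of the family that maintains epithelial cells, was -7.00, -6.94, -6.83 and -6.80 against -7.44, -7.01 and -7.39, a difference of 0.39 (standard error 0.14, exact permutation p = 0.0286). miR-99a* minus miR-99a was -6.28, -6.34, -6.55 and -6.26 against -6.71, -6.68 and -6.63, a difference of 0.31 (standard error 0.12). The ages did not overlap for the last 2. Without normalisation the difference was 0.22 for miR-200b* and 0.021 for miR-99a*.

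**Figure D4:**
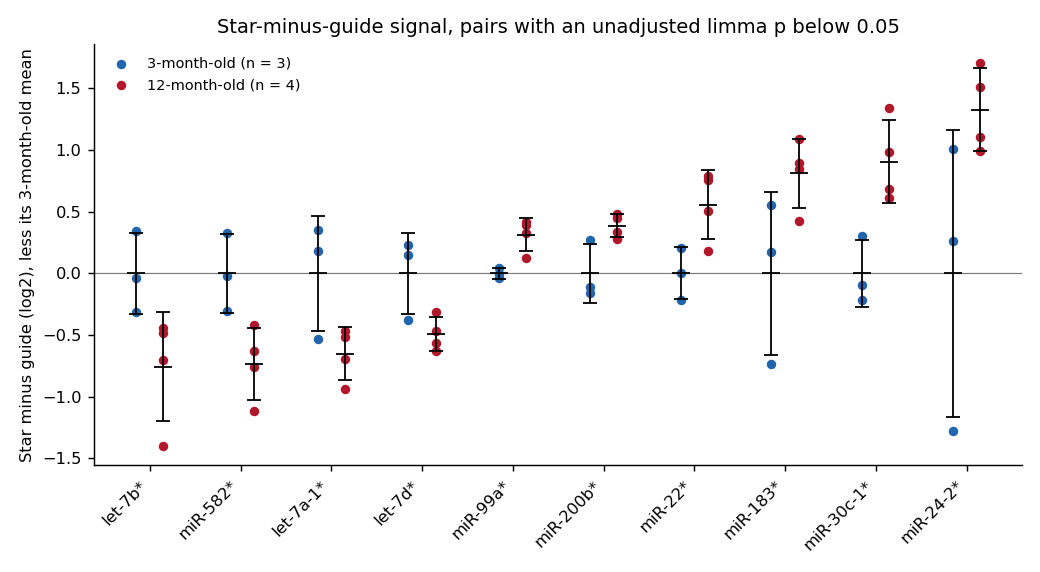
Star minus guide on the log2 scale, less the mean of the 3-month-old rats, for the 10 pairs with an unadjusted limma p below 0.05, with 1 point per rat (blue, 3 months, n = 3; red, 12 months, n = 4) and the mean ± SD in black. The 3 let-7 stars and miR-582* lie below 0 in all 4 older rats and the other 6 above 0. miR-30c-1* and miR-24-2* were not above background in the younger rats, so their blue points rest on undetected signals.

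A star-minus-guide difference does not depend on how an array is scaled, except where a signal lies at the floor. With no normalisation 7 of the 26 pairs had an unadjusted limma p below 0.05, beside 25.9% of all hairpins, 3 of them higher (miR-22*, detected in every rat, and miR-30c-1* and miR-24-2*, undetected in the younger) and 4 lower (miR-582*, let-7d*, let-7b* and let-7a-1*). The median difference over the 26 was then 0.01, against 0.13 after quantile normalisation. Several bright pairs had an unadjusted limma p above 0.05 under both settings, which does not show that their strands moved together. miR-140* minus miR-140 differed by -0.024 (standard error 0.16) and by 0.0021 without normalisation, and miR-29c* minus miR-29c by -0.040 (standard error 0.14) and by -0.14. Of the 2 stars of miR-7a, miR-7a-2* had a pair difference of 0.17 (standard error 0.22) and miR-7a-1* of 0.31 (standard error 0.18), and 0.042 and -0.041 without normalisation. For miR-30a* minus miR-30a it was 0.20 (standard error 0.19) and for miR-455* minus miR-455 -0.12 (standard error 0.28). An approximate interval of 2 standard errors on either side includes 0 for each of these. For miR-455* it also includes differences as large as those of let-7d* and miR-200b*. For miR-7a-1*, miR-7a-2* and miR-30a* it includes a difference as large as that of miR-200b*. Among the other bright stars, miR-483* minus miR-483 differed by 1.05 (standard error 0.51, limma adjusted p = 0.168) and by 1.09 without normalisation. miR-652* minus miR-652 differed by -0.45 (standard error 0.46) and by -0.47 without normalisation.

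Several bright star miRNAs varied more between the 4 older rats than between ages. miR-211*, whose guide was not detected, had normalised log2 values of 5.85, 7.22, 7.71 and 5.57 at 12 months and 6.27, 6.78 and 5.60 at 3 months. miR-483*, from a hairpin within the insulin-like growth factor 2 gene, had 6.01, 7.12, 8.09 and 5.83 and 6.17, 6.57 and 5.22. miR-652* had 7.39, 8.33, 8.89 and 7.14 and 8.09, 8.16 and 8.14. In each case 12-month-old replicates 4 and 10 were above and replicates 2 and 16 below, and the 3-month-old rats lay between the extremes or, for miR-483*, reached below them. The signals of miR-483* were 77.1, 191, 276 and 66 units and 54.2, 83 and 23.2 units, so the brightest array was 11.9 times the dimmest. miR-328a* and miR-150* were ordered like miR-211* among the older rats. miR-455* and miR-7a-2* were ordered the other way, with 7.64, 6.72, 6.14 and 7.64 and 7.44, 6.85, 6.24 and 7.22 at 12 months.

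Replicates 2 and 16 were the 2 arrays at position 4 of the slide, in different rows, and position 4 held no younger rat. Among the older rats, both arrays at position 4 were above the other 2 for 15 of the 35 star miRNAs (42.9%, against 39.7% of all miRNAs tested) and below them for 9 (25.7%, against 19.5%). The position and the rats themselves cannot be told apart here. The mean of the position 4 arrays minus that of the other older rats ran from -1.76 for miR-211* to 1.20 for miR-455*. Over the 22 tested star miRNAs with a RefSeq sequence, this difference was lower where the share of G in the sequence was higher (Pearson r = -0.73, Spearman rho = -0.52, across miRNAs measured on the same 4 arrays and so not independent). The share of G was 50% in miR-211* and miR-483* and 34.8% in miR-652*, against 13.6% in miR-7a-2* and 4.55% in let-7a-1* and let-7b*. Over the same 22 miRNAs the age difference was higher where the share of G was higher (r = 0.60, rho = 0.63). These are again not independent, since all were measured on the same arrays. They also include miR-30c-1*, miR-99b*, miR-24-2* and let-7a-1*, which passed the filter only through the older rats, so the correlation is no support.

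**Figure D5:**
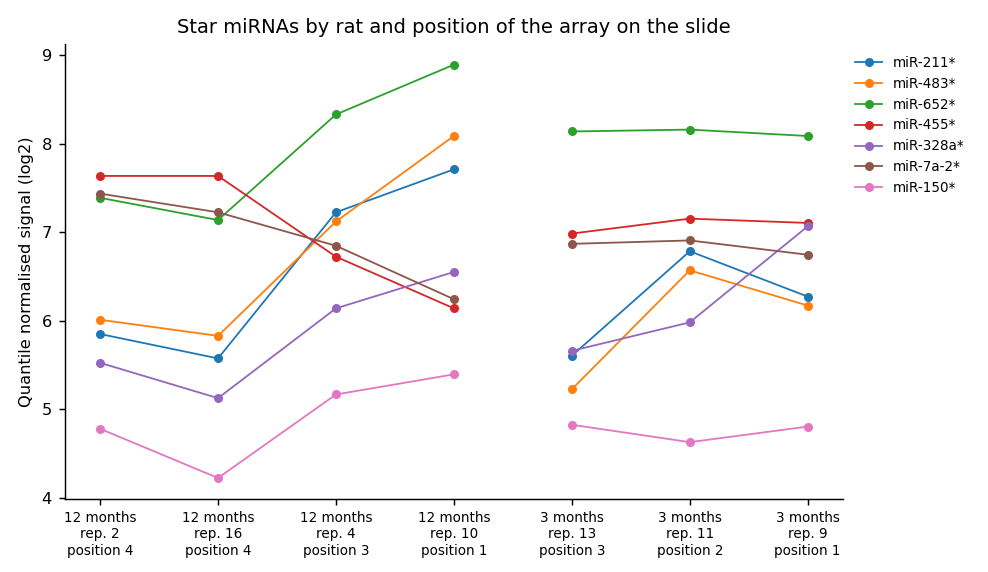
Quantile normalised log2 signal (vertical axis) of 7 star miRNAs in each rat (horizontal axis, with age, replicate and position of the array along the slide), chosen as those with the largest difference between position 4 and the other 12-month-old arrays. miR-211*, miR-483*, miR-652*, miR-328a* and miR-150* are lower at position 4, and miR-455* and miR-7a-2* are higher there.

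With the position as a block, which takes the age difference from positions 1 and 3, the 10 star miRNAs with an unadjusted limma p below 0.05 kept their direction, and the log2 differences were between -0.95 for let-7b* and 1.38 for miR-330*. Of the 10, miR-330*, miR-24-2* and miR-30c-1* passed the filter only through the older rats, in which they were brighter, so their direction and size here support nothing. Within positions 1 and 3 the difference was -1.16 and -0.74 for let-7b*, and -0.75 and -0.96 for miR-1*. For miR-330* it was 0.10 and 2.67, the latter against a signal set to 1, and for miR-22* -0.067 and 0.72, so these 2 rest on position 3 and on the position 4 arrays. Within rows 1 and 2 of the slide, each of which holds both ages, the difference was -0.55 and -1.01 for let-7b*.

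A further 8 star miRNAs were detected, but not in all rats of either age, and were not tested. miR-505*, detected on 3 of 4 older arrays and no younger one, gave 8.64, 12.2, 7.04 and 12.6 units at 12 months and 2.05, 5.95 and 5.37 units at 3 months. miR-29a*, the partner of the bright miR-29a, gave 5.52, 7.93, 4.09 and 6.18 units and 2.78, 2.32 and 1.75 units and was detected on 3 older arrays and 1 younger. miR-208*, from a heart muscle hairpin, gave 17, 22.97, 12 and 12.9 units and 9.42, 12.2 and 9.86 units with the same detection. miR-33*, from a hairpin within a gene of sterol regulation, gave 3.96, 1.94, 2.59 and 3.93 units and -0.226, -0.258 and 0.485 units and was detected on 2 older arrays. miR-378*, miR-29b-2*, miR-466b-2* and miR-664-2* were detected on 1 or 2 arrays. The signals of the 8 lay between -1.58 and 22.97 units, with those of miR-208* the brightest, and no difference between ages is given for them.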

How the data were processed

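MiRNAs were measured in islets of 4 older (12 months) and 3 younger (3 months) rats on Agilent miRNA arrays with 1 dye. Per the labels, the authors extracted the arrays with Agilent Feature Extraction (version 10.7.3.1), and the deposited files give intensities on a linear scale and a detection flag for each miRNA. A second deposited table holds quantile normalised log2 values and served as an alternative.

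The total gene signal of the 677 rat miRNAs was read, signals under 1 were set to 1, and log2 values were quantile normalised (limma 3.58.1, R 4.3.3). The 272 miRNAs detected in all rats of 1 age or of both were tested with lmFit and eBayes, with 3.03 degrees of freedom of the prior, and p values were adjusted by Benjamini-Hochberg over all of them. Star minus guide was tested in the same way over the 54 hairpins with both strands tested, 5p minus 3p where no strand carries a star. The guide is the miRNA of the same name without the asterisk and, where the array holds none, without the copy number. Single differences were also tested with a two-sided exact permutation test over the 35 splits of the rats, whose smallest p is 0.0286. The pipeline was tested on simulated data.

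The star miRNAs and lists were chosen with earlier results of these data known. Named were star miRNAs with an unadjusted p below 0.05, alone or against the guide, those detected at 1 age only, the 10 brightest, and the guides of all these. Arrays were grouped by the age in the labels. Between 30 and 42 of the star miRNAs were detected per array, no spot was saturated, and the number of arrays limits the precision. Alternatives covered normalisation, floor, detection filter, background correction, variance model, array weights, slide row and position, the authors' table of log2 values, and leaving out single rats.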

Additional observations from a re-analysis of the deposited data

How the results depend on the processing

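No paired analysis was possible because the 2 ages share no replicate numbers. Counts over all miRNAs or hairpins tested follow in brackets. The 10 star miRNAs with an unadjusted p below 0.05 (59 of 272) became 22 with no normalisation between arrays (193 of 272). They became 4 with normexp on the median spot signal (52 of 272). When only miRNAs detected on all 7 arrays were kept they were 6, 1 higher and 5 lower (44 of 238). When each rat was left out the count lay between 7 and 12 (41 to 88). The count below an adjusted p of 0.05 went from 0 (4 of 272) to 20 with no normalisation (171) and 6 with array weights (48). It was 4 with scaling to the 75th percentile of miRNAs detected in every rat (20) and 1 with scaling to that of all rat miRNAs (9). With scaling to miR-7a it was 3 (15). With the position along the slide as a block, an alternative chosen after seeing the data, it was 2 (10). It stayed at 0 when any rat was left out. The 10 star-minus-guide pairs (23 of 54) became 0 with normexp (4 of 54) and 6 in the deposited matrix (13 of 54). They lay between 2 and 9 when each rat was left out, the lowest without 12-month-old replicate 16 (8 of 54). After adjustment 1 pair passed when every miRNA detected on at least 1 array was tested (1 of 70). With array weights 5 passed (11 of 54) and with the position block 3 (7 of 54). When each rat was left out 0 to 1 passed, with 1 without 3-month-old replicate 11 (3 of 54). Array weights gave 12-month-old replicate 10 the lowest weight, 0.223. Without normalisation, the age difference turned to 0.11 for let-7a-1*, 0.0059 for miR-191* and 0.093 for miR-202*. The star-minus-guide difference of miR-30c-1* turned to -0.036 with the raised floor and -0.022 with normexp, and that of miR-183* to -0.042 with normexp. Of 413 alternatives for the 20 single differences, these 6 reversed, 25 kept the direction and passed the adjusted threshold, and the others kept the direction and stayed above it. Of the latter, 108 had an unadjusted p that was no longer below 0.05, among them -0.016 for miR-1* without normalisation and -0.061 for let-7a-1* with normexp. The cause was not tested. The 413 alternatives include those of miR-30c-1*, miR-24-2* and miR-330*, which passed the filter only through the older rats, so their part of these counts supports nothing. In the age comparison, 2 of the 25 that passed were of miR-30c-1*, 2 of miR-24-2* and 3 of miR-330*. Signals within a few units of the detection limit, as for miR-30c-1*, miR-24-2*, miR-330* and let-7a-1*, limit what can be said of these star miRNAs.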
